A study of Rattus norvegicus with 2 samples.

Results

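The genes described here are Apoe, Apod, Clu, Pltp and Dbi, 5 of the 32623 genes counted in single cells of the rat cochlear duct. Of them 4 encode secreted proteins that carry or remodel lipids, and Dbi encodes a carrier of fatty acyl-CoA inside the cell. They were chosen by their measured levels in these same libraries, which earlier work on the data had listed as high in single clusters or different between the ages. Their levels and the differences between ages are therefore given as a description, with no test.

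Cells came from the cochlear ducts of Sprague-Dawley rats at postnatal day 1 (P1) and postnatal day 7 (P7), with tissue of many animals pooled into 1 library per age. The animals carried no engineered allele and received no agent at either age, so that age was the only labelled difference. The stria vascularis, spiral ligament and spiral ganglion had been dissected away before the tissue was dissociated with collagenase and papain, and droplets were captured with the 10x Genomics 3' chemistry. With 1 library per age, age and library cannot be told apart.

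Apolipoprotein E, made by Apoe, is a secreted carrier that delivers cholesterol and phospholipid to cells through receptors of the low-density lipoprotein receptor family, and macrophages and glia are well-known sources of it. Apolipoprotein D, made by Apod, is a lipocalin that binds small hydrophobic molecules such as arachidonic acid, and clusterin, made by Clu and also called apolipoprotein J, is an extracellular chaperone that travels with lipoprotein particles. The phospholipid transfer protein, made by Pltp, moves phospholipids between lipoproteins, while the acyl-CoA-binding protein made by Dbi holds acyl-CoA esters in the cytosol and is also the precursor of peptides that bind the GABA-A receptor. Schwann cells, the glia of the peripheral nerve, need large amounts of cholesterol and fatty acid to build myelin.

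Promoter windows of RefSeq, from 250 bases before to 50 bases after each annotated start in the GRCr8 assembly, were found for 4 of the 5 genes. Clu was not matched. The windows of Dbi, Apod and Pltp are shown because Dbi was counted widely and was highest in glia, whereas Apod was highest in the mesenchyme and Pltp in macrophages, vessels and fibroblasts. Capitals mark each CG dinucleotide and each match to TATAAA or CCAAT on either strand.
Dbi, chr13:33802569-33802868, minus strand: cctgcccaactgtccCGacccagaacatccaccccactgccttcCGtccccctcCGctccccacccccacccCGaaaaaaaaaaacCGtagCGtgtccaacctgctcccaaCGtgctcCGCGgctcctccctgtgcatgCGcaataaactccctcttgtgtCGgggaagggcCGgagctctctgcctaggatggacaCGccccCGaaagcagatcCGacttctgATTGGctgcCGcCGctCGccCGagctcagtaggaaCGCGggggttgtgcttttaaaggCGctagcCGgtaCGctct
Apod, chr11:82935970-82936269, plus strand: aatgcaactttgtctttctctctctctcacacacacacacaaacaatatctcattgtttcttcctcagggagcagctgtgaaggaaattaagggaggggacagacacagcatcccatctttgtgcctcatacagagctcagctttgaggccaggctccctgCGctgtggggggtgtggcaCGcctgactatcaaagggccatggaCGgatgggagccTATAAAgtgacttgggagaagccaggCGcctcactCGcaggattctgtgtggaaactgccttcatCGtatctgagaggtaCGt
Pltp, chr3:174011933-174012232, minus strand: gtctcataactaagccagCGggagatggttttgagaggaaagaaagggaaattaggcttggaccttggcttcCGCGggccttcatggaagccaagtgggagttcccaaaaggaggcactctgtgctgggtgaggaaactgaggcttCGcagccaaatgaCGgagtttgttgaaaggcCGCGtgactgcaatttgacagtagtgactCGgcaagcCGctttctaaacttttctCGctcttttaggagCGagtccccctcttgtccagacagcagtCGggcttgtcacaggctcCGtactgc
The Dbi window held 24 CG dinucleotides and 1 match to CCAAT on the reverse strand, the Apod window held 7, and the Pltp window held 13. Over all 33469 windows the median was 7 and the upper quartile 19. The Apod window held the letters TATAAA 33 bases before the start, which 14.2% of all windows held on either strand. CCAAT was present in 37.5% of all windows. Apoe had 3 annotated starts, whose windows held 3, 10 and 12 CG dinucleotides. Such matches describe the letters of the window, and the counts below were made on an earlier assembly, rn6.

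Levels are given in CPM, the unique molecular identifiers (UMIs, each standing for 1 captured transcript) of a gene scaled to 1e6 UMIs of the same cells, and all 95% intervals are exact Poisson intervals that cover counting error only. After limits on genes, UMIs and mitochondrial share, 12779 P1 cells and 12581 P7 cells remained, with medians of 6565 and 6878 UMIs, and 60 barcode sequences occurred in both libraries. In the whole library Apoe stood at 1566 CPM (1559 to 1574) at P1 and 3425 CPM (3413 to 3437) at P7, and Apod at 763 CPM (758 to 769) and 2245 CPM (2235 to 2255). Clu stood at 181 CPM (178 to 183) at P1 and 387 CPM (383 to 391) at P7. Pltp was at 116 CPM (114 to 118) and 323 CPM (320 to 327), and Dbi at 1468 CPM (1461 to 1476) and 2333 CPM (2324 to 2343). Each of the 5 genes was thus higher in the P7 library, by 2.19-fold for Apoe, 2.94-fold for Apod, 2.14-fold for Clu, 2.79-fold for Pltp and 1.59-fold for Dbi. Of the 8222 genes with at least 10 CPM in the higher library, 5.34% were higher at P7 by a log2 ratio of at least 1 after 5 CPM had been added to each level, and 3.5% were lower by as much. By that measure 4 of the 5 members were higher and 0 lower, which follows from how they were chosen. The median log2 ratio of all these genes was 0.11.

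Cell types were set by gates, lists of marker genes that held none of the 5 members, and each name below stands for the cells past that gate. The gates took in 79.8% of P1 cells and 89.7% of P7 cells. Of the mesenchyme, the gates were Otor-high fibrocytes (2587 and 2568 cells at P1 and P7), Gpc3-Dcn fibroblasts (2322 and 2888), Aldh1a2-Scara3 mesenchyme (1025 and 678) and Ccn3-Irx3-Scg3 mesenchyme (1807 and 996). Glia were divided into 389 and 1584 myelinating Schwann cells and 1016 and 1866 other glia. Endothelial cells (148 and 161), pericytes and other mural cells (306 and 259) and macrophages (148 and 164) were smaller gates. The labels call the cells greater epithelial ridge cells, yet the epithelial gate held only 182 P1 cells (1.42%) and 99 P7 cells (0.787%), of which 91 and 67 also expressed ridge genes such as Tecta and Otoa. Neurons past their gate numbered 246 at P1 but 15 at P7, so that they are ranked at P1 only. Every order of cell types below covers gates of at least 50 cells, which leaves out hair cells (15 at P1), melanocytes (7 at P1 and 4 at P7) and neutrophils (4 and 3).

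**Figure D1:**
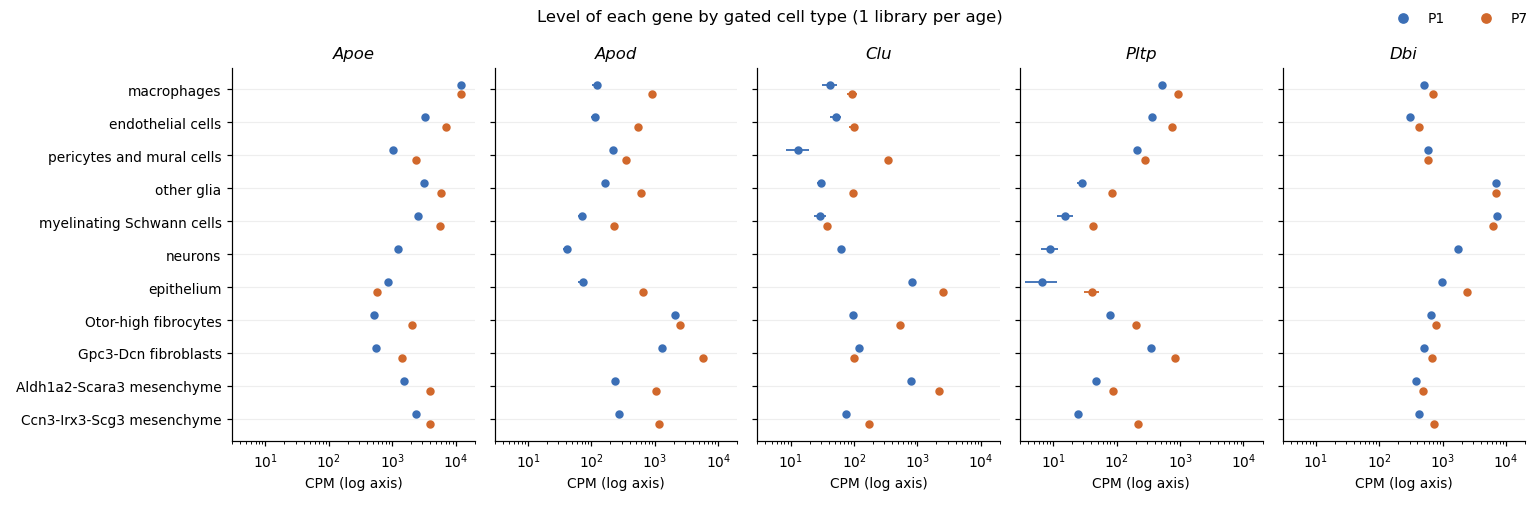
Level of each gene (CPM, logarithmic axis) in each gated cell type with at least 50 cells at P1 (blue) and P7 (orange), with bars for the exact 95% Poisson interval where it is wider than the point. Apoe peaks in macrophages at both ages, Dbi in both glial gates, Clu in epithelium and Aldh1a2-Scara3 mesenchyme, and Apod peaks at 2069 CPM in fibrocytes at P1 and at 5683 CPM in fibroblasts at P7.

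Apoe was most abundant in macrophages, at 12111 CPM (11920 to 12306) at P1 and 12262 CPM (12071 to 12455) at P7, with a log2 ratio of 0.02 (−0.01 to 0.05) that became −0.31 with a mitochondrial share under 10% and −0.03 by the mean of cell shares. Among gates of at least 50 cells endothelial cells came next, at P1 with 3317 CPM and at P7 with 6979 CPM, followed by other glia with 3233 CPM and 5803 CPM and myelinating Schwann cells with 2598 CPM and 5624 CPM. At P1 the intervals of endothelial cells and other glia overlapped, and at P7 those of Aldh1a2-Scara3 mesenchyme (4014 CPM) and Ccn3-Irx3-Scg3 mesenchyme (3955 CPM) did. The 7 melanocytes at P1 had 6090 CPM (5377 to 6870). The lowest levels at P1 were in fibroblasts, at 559 CPM, and fibrocytes, at 520 CPM. Fibrocytes were also where the P7 level was highest relative to P1, at 2082 CPM, or 4.005-fold. The macrophage marker list summed to 40.6 CPM in P7 endothelial cells against 21109 CPM in P7 macrophages.

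Apoe in epithelium went the other way, from a P1 level of 870 CPM (829 to 913) to a P7 level of 584 CPM (544 to 627), a log2 ratio of −0.57. Its level was uneven, since 7 of the 182 P1 cells and 7 of the 99 P7 cells held at least 50% of the Apoe UMIs of the gate. Without the 5 cells richest in Apoe at each age the levels were 522 CPM and 360 CPM. Epithelial cells with ridge genes had 472 CPM at P1 and 376 CPM at P7, and those without them 1351 CPM and 1036 CPM. Cells with ridge genes in any gate or none, 133 at P1 and 185 at P7, went the other way, with 572 CPM and 1366 CPM. The share of epithelial cells with an Apoe UMI was not lower at P7, standing at 34.4% (27.5 to 41.9) at P1 and 46.5% (36.4 to 56.8) at P7 when each cell was thinned to 2000 UMIs, so that level and share give no common order.

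Among gates of at least 50 cells, Dbi separated the glia from every other cell type. Its level was 7277 CPM in myelinating Schwann cells and 7034 CPM in other glia at P1, and 6127 CPM and 6927 CPM at P7. After thinning, 99.7% of glia carried a Dbi UMI at both ages (1381 cells at P1 and 3349 at P7). The next gate at P1 was neurons, at 1754 CPM, a level 4.01-fold below that of other glia. In those neurons the glial marker list summed to 700 CPM against 3138 CPM in other glia, and its part in the neuronal value was not tested. The 15 P7 neurons, too few for the order, had 4981 CPM (4555 to 5436), nearer to the glia than to the other gates. All 4 mesenchyme gates, mural cells, macrophages and endothelial cells lay between 305 CPM and 659 CPM at P1 and between 426 CPM and 784 CPM at P7. Epithelium had 965 CPM (922 to 1010) at P1 and 2416 CPM (2334 to 2500) at P7, where 7 of the 99 cells held at least 50% of the Dbi UMIs. Without the 5 richest epithelial cells per age the levels were 812 CPM and 1466 CPM. Dbi was thus high in glia at both ages, lower in the mesenchyme and vessels, and between these in P7 epithelium.

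The Dbi level of glia differed little between ages beside the gap to other cell types. In myelinating Schwann cells it was lower by a log2 ratio of −0.25 (−0.27 to −0.23), and in other glia the ratio was −0.02 (−0.04 to −0.00498), which turned to 0.0254 with 1 more marker required, 0.0337 without doublets and 0.0095 without cells that also passed a mesenchyme gate. The higher Dbi level of the P7 library went with the larger number of gated glia, which held 9.10% of all UMIs at P1 and 25.03% at P7. Cells past no gate held 15.7% of all UMIs and 20.8% of Dbi UMIs at P1, and 6.68% and 6.60% at P7. At P1 the highest 10% of them lay at or above 8146 CPM of Dbi. Whether glia missed by the gate were among them was not tested. With the P1 level of each gate and the P7 mix of gates the log2 ratio of P7 to P1 was 0.67, the same as observed. With the P7 levels and the P1 mix it was 0.29. For Apoe, Apod and Pltp the P7 levels at the P1 mix gave log2 ratios of 1.08, 1.39 and 1.36, beside 1.13, 1.56 and 1.48 observed. For Clu the levels alone gave a log2 ratio of 1.38 and the mix alone −0.34, beside 1.10 observed.

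**Figure D2:**
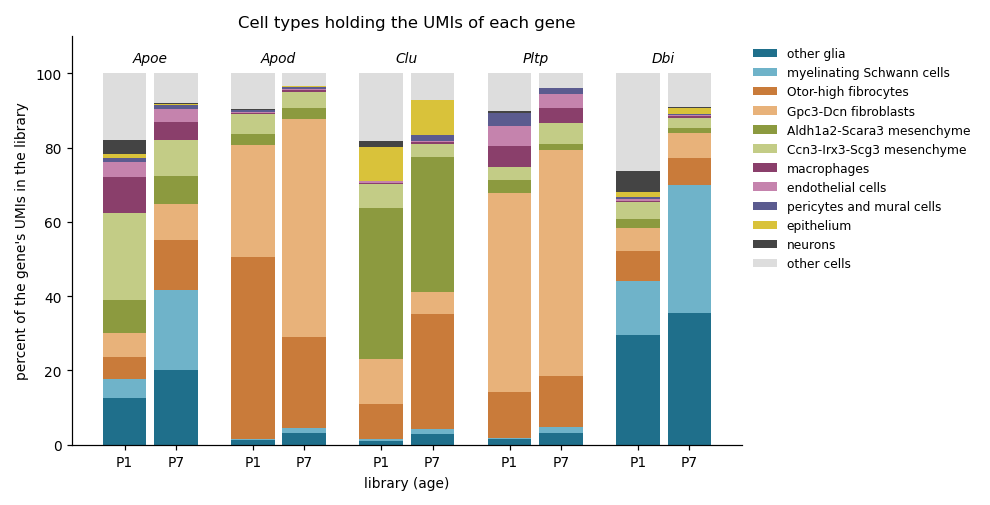
Percent of each gene's UMIs found in each gated cell type, as stacked bars for P1 and P7, with cells past no gate, past several gates or in very small gates in grey. The glial part of the Dbi bar is 44.1% at P1 and 69.8% at P7, and the fibroblast part of the Apod bar is 30.2% and 58.8%.

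Among glia Apoe and Dbi varied with the number of myelin markers counted in a cell. At P7, Apoe was at 5361 CPM in glia with 0 of 10 markers, 5913 CPM with 1 to 2, 6844 CPM with 3 to 4 and 4140 CPM with 5 to 10. At P1 the corresponding levels were 3729, 3057, 2747 and 1859 CPM, highest in glia without myelin markers. Dbi had its lowest level in glia with 5 to 10 markers at both ages, 5409 CPM at P1 and 4629 CPM at P7, and its highest with 3 to 4 markers, 7655 CPM and 7358 CPM. The cells with more markers were also deeper, with median UMIs of 4728 for 0 markers and 8140 for 5 to 10 at P7, and the part of depth was not tested. In other glia, dividing cells had less Apoe than the rest, 2128 CPM against 3471 CPM at P1 and 4122 CPM against 6338 CPM at P7, whereas Dbi differed less, at 6149 against 7225 CPM and 6444 against 7081 CPM.

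**Figure D3:**
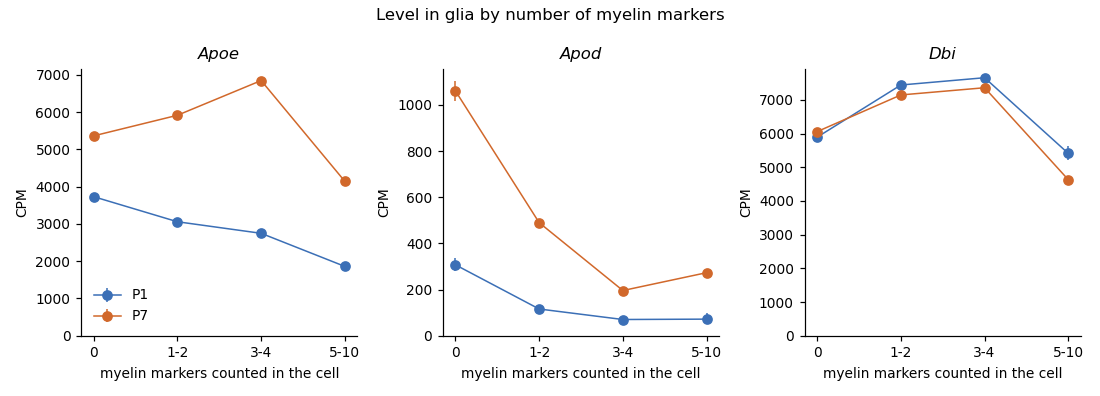
Level (CPM) of Apoe, Apod and Dbi in glia grouped by the number of myelin markers counted in each cell, at P1 (blue) and P7 (orange), with exact 95% Poisson intervals. At P7 Apoe peaks at 6844 CPM in cells with 3 to 4 markers, Apod is highest at 1061 CPM in cells with 0, and Dbi is lowest in cells with 5 to 10 at both ages.

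Apod had a different leading cell type at each age. At P1 it was highest in fibrocytes, at 2069 CPM (2048 to 2090), ahead of fibroblasts at 1283 CPM (1266 to 1300), and at P7 fibroblasts had 5683 CPM (5651 to 5715) against 2463 CPM (2442 to 2485) in fibrocytes. On the log2 scale P7 exceeded P1 by 2.15 (2.13 to 2.17) in fibroblasts and 0.25 (0.23 to 0.27) in fibrocytes. The share of thinned fibroblasts with an Apod UMI was 48.6% at P1 and 83.5% at P7, and that of fibrocytes 76.8% and 76.5%. Within fibroblasts the level was broad, the lowest 10% of P7 cells lying at or below 126 CPM, the median cell at 2606 CPM and the highest 10% at or above 14181 CPM. Ccn3-Irx3-Scg3 mesenchyme had 270 CPM and 1151 CPM, and Aldh1a2-Scara3 mesenchyme 235 CPM and 1044 CPM. The P7 level of Aldh1a2-Scara3 mesenchyme was uneven, since 11 of the 678 cells held at least 50% of its Apod UMIs and the median cell was at 112.9 CPM. Its thinned share lay above that of macrophages, the reference used below, at P1 and below it at P7, with overlapping intervals at both ages. No expression is read from that P7 share alone.

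Outside the mesenchyme, Apod was low at P1 and higher at P7. Macrophages, taken as cells that should lack it, had 121 CPM and a thinned share of 11.1% at P1 (median depth 7591 UMIs) and 905 CPM and 33.1% at P7 (median depth 7230 UMIs). The shares in other glia (9.57% and 25.4%), myelinating Schwann cells (8.51% and 19.2%), epithelium (7.22% and 23.2%), P7 endothelial cells (22.9%) and P7 mural cells (18.9%) lay below that reference, and no expression is read from these shares alone. At P1 endothelial cells (13.4%, 8.25 to 20.1) and mural cells (15.3%, 11.4 to 19.9) lay above it, with intervals that overlapped that of macrophages (6.49 to 17.4). In macrophages the fibroblast marker list summed to 256 CPM at P1 and 1278 CPM at P7, and the fibrocyte list to 2623 CPM and 6779 CPM, beside the Apod values, and their part in them was not tested. In P7 endothelial cells 2 of 161 cells, and in P7 epithelium 2 of 99, held at least 50% of the Apod UMIs. Apod in glia was highest in cells without myelin markers, 307 CPM at P1 and 1061 CPM at P7. Other glia include those cells. In other glia 10 of 1016 cells at P1 and 28 of 1866 at P7 held at least 50% of the Apod UMIs. The fibroblast marker list summed to 1753 CPM and 2223 CPM in other glia, and its part in their Apod values was not tested.

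Clu was shared by the epithelium and the Aldh1a2-Scara3 mesenchyme. The epithelial level was 831 CPM (791 to 873) at P1 and 2517 CPM (2433 to 2603) at P7, and that of the mesenchyme 806 CPM (787 to 825) and 2164 CPM (2127 to 2201), so that the intervals overlapped at P1 only. The next gate of at least 50 cells was 6.70-fold lower at P1 and 4.01-fold lower at P7. The 15 hair cells at P1 had 446 CPM (363 to 543). In thinned epithelial cells the share with a Clu UMI was 67.8% (60.4 to 74.5) at P1 and 93.9% (87.3 to 97.7) at P7, and in the mesenchyme 51.7% and 81.2%, against 2.78% and 9.27% in macrophages. Epithelial cells with ridge genes had 870 CPM and 2641 CPM, close to the 784 CPM and 2248 CPM of other epithelial cells.

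In fibrocytes Clu was at 96.0 CPM at P1 and 539 CPM at P7, which placed 30.9% of all P7 Clu UMIs there against 9.58% at P1. The Clu of fibrocytes lay in few cells, since 89 of 2568 cells held at least 50% of it at P7. Fibrocytes with a UMI of Car3, a carbonic anhydrase gene, numbered 166 at P1 and 823 at P7 and had 312 CPM and 1052 CPM of Clu, against 78.5 CPM and 232 CPM in those without. The cells with Car3 were deeper, with median UMIs of 8980 against 7092 at P7. Fibroblasts had less Clu at P7 than at P1, 98.5 CPM (94.4 to 102.8) against 120 CPM (115 to 126), with thinned shares of 7.81% and 8.18%, of which the P7 share lay below the macrophage reference. The Clu of fibroblasts also lay in few cells. At P7 28 of 2888 cells, and at P1 26 of 2322, held at least 50% of it. The intervals do not contain this variation between cells.

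The steepest difference of all, Clu in mural cells at a P1 level of 13.1 CPM and a P7 level of 345 CPM, rested on few cells. There 1 of the 259 P7 cells held 370 of the 607 UMIs, and in that cell the mural marker list summed to 1348 CPM against 9132 CPM in the remaining cells. Without the 5 richest cells per age the mural levels were 10.6 CPM and 41.7 CPM. The Poisson interval of 318 to 373 CPM at P7 does not contain this variation between cells. The thinned shares, 2.66% and 6.43%, lay below the macrophage reference.

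Pltp was highest in macrophages at both ages, 1.43-fold above the next gate at P1 and 1.08-fold at P7. The P7 order changed with a mitochondrial share under 10%. Fibroblasts then had 804 CPM, endothelial cells 770 CPM and macrophages 693 CPM. Macrophages (510 CPM at P1 and 917 CPM at P7), endothelial cells (358 and 756 CPM) and fibroblasts (344 and 847 CPM) led at both ages, with mural cells next at 213 CPM and 278 CPM. The intervals of endothelial cells and fibroblasts overlapped at P1. By their number, fibroblasts held 53.5% of all Pltp UMIs at P1 and 60.8% at P7. Thinned shares were 52.8% and 70.9% in macrophages, 40.1% and 61.8% in endothelial cells and 36.4% and 64.0% in fibroblasts. P1 neurons, taken as cells that should lack Pltp, stood at 2.97% (median depth 20152 UMIs). That reference covers P1 only, since P7 neurons were too few. The lowest P7 share among gates of at least 50 cells was 5.75%, in myelinating Schwann cells.

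Among the mesenchyme, Pltp in Ccn3-Irx3-Scg3 cells was at 24.7 CPM (22.2 to 27.3) at P1 and 218 CPM (208 to 229) at P7, 8.85-fold, with thinned shares of 4.25% and 26.1%. The level was uneven, since at P7 88 of the 996 cells held at least 50% of it and the median cell was at 0 CPM. Fibrocytes had 79.4 CPM and 198 CPM and Aldh1a2-Scara3 mesenchyme 46.8 CPM and 88.3 CPM. Pltp was lowest in epithelium, with 13 UMIs (6.76 CPM) at P1 and 55 UMIs (40.8 CPM) at P7.

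**Figure D4:**
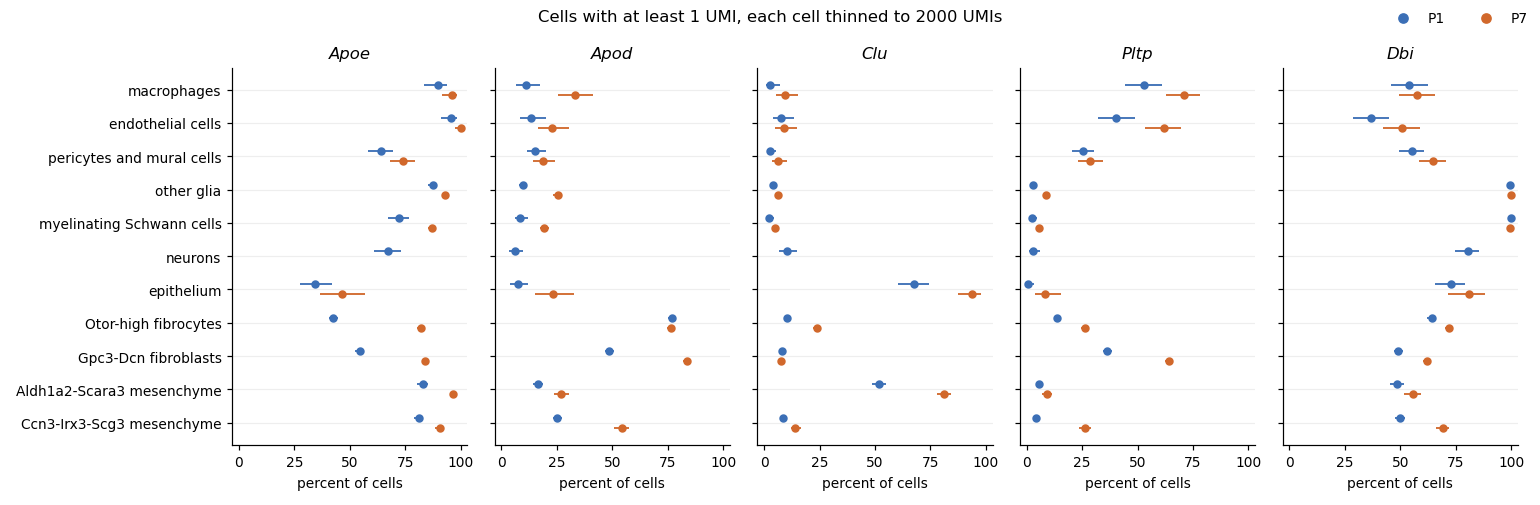
Percent of cells with at least 1 UMI of each gene after every cell was thinned to 2000 UMIs, by gated cell type at P1 (blue) and P7 (orange), with exact 95% binomial intervals. Dbi is near the top of the axis in both glial gates, Clu reaches 93.9% in P7 epithelium, and Apod stands at 76.8% and 76.5% in fibrocytes and at 48.6% and 83.5% in fibroblasts.

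Cells under 2000 UMIs, 252 at P1 and 711 at P7, were left out of the thinned shares. Over all cells these shares were 64.1% and 86.4% for Apoe, 37.7% and 52.5% for Apod, 14.03% and 16.8% for Clu, 14.3% and 28.9% for Pltp, and 62.2% and 76.2% for Dbi. Without thinning they were 84.4% and 96.7% for Apoe, 52.6% and 69.7% for Apod, 26.96% and 28.1% for Clu, 29.6% and 47.5% for Pltp, and 88.7% and 94.6% for Dbi. Neurons did not serve as a reference for Apoe, since 67.4% of thinned P1 neurons carried it.

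Free RNA was gauged from C1qa, C1qb and C1qc, complement genes of macrophages, in all other gates. Their median level there was 0.008 to 0.013 of their level in the whole library at P1 and 0.130 to 0.143 at P7, at most 0.207. The members at or below that highest value at P7 were Apoe in epithelium (0.171 of its library level), Apod in myelinating Schwann cells (0.103) and mural cells (0.157), Pltp in epithelium (0.126) and myelinating Schwann cells (0.129), Clu in myelinating Schwann cells (0.0958) and Dbi in endothelial cells (0.183). The part of free RNA in these values was not tested.

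Counted by gate, Apod and Pltp were higher at P7 in each of the 10 gates with 50 cells at both ages by their intervals, Clu in 9, Apoe in 8 and Dbi in 7. By a log2 ratio of at least 1 after adding 5 CPM, 3 of the 5 members were higher in other glia, where 5.6% of all genes tested were, and 3 in myelinating Schwann cells, where 6.51% were higher and 5.84% lower. In epithelium 4 members were past that ratio against 9.8% of genes, in endothelial cells 3 against 6.67%, in mural cells 2 against 4.66% and in macrophages 2 against 11.5%. In fibrocytes the count was 3 against 6.96%, in fibroblasts 3 against 5.36%, in Aldh1a2-Scara3 mesenchyme 3 against 5.28% and in Ccn3-Irx3-Scg3 mesenchyme 3 against 7.04%. No member was lower by that ratio in any of the gates. The members had been chosen on levels of these libraries, so nothing is read from these counts.

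**Figure D5:**
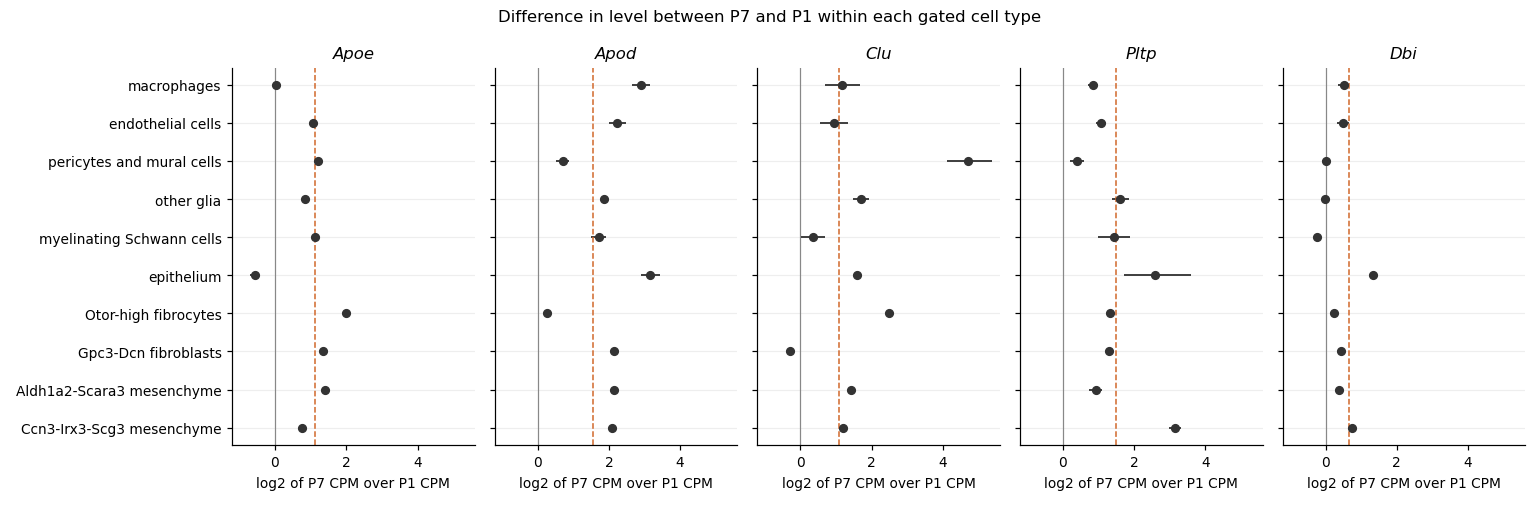
Log2 ratio of the P7 to the P1 level of each gene in each gated cell type, with exact conditional 95% intervals, a grey line at no difference and a dashed line at the ratio over all cells. Apoe in epithelium (−0.57), Clu in fibroblasts (−0.29) and Dbi in myelinating Schwann cells (−0.25) lie left of the grey line, and the mural Clu ratio of 4.71 rests on few cells.

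The genes whose pattern was most like that of each member, by Pearson's r of log2 levels over 21 columns of cell type and age and among 5689 genes, were Tmem176a for Apoe (0.86), Kazald1 for Apod (0.96), Phyh for Clu (0.86), Fxyd5 for Pltp (0.90) and Atp10b for Dbi (0.96). Snx2 (0.84) and Tmem14c (0.81) followed for Apoe, Fam180a (0.95) and Sertad4 (0.93) for Apod, Lyplal1 (0.85) and Rnf145 (0.83) for Clu, Entpd1 (0.90) and Sri (0.89) for Pltp, and Tmem229a (0.96) and Gal3st1 (0.96) for Dbi. Gal3st1 encodes the enzyme that makes sulfatide, a lipid of myelin. Between members the values were lower, the highest being 0.56 for Apod with Pltp and the lowest −0.52 for Dbi with Pltp. Columns of 1 library share its depth and free RNA, so these values are descriptions.

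A wider list of lipid genes was described in the same way, 74 of its 76 genes being found in the files. Of the 46 with at least 10 CPM, 6 were higher at P7 and 1 lower by a log2 ratio of at least 1. Among all genes tested 5.34% were higher and 3.5% lower. The median log2 ratio of the list was 0.32, beside 0.11 over all genes. Among secreted carriers, Ptgds, a lipocalin that also makes prostaglandin D, was at 33.0 CPM at P1 and 97.4 CPM at P7, and was highest in epithelium at 494 CPM and 1819 CPM. Abca1, which loads cholesterol onto apolipoprotein E, was at 40.8 and 65.2 CPM, and Abca8a at 48.0 and 75.2 CPM. Abca8a was highest in the glial gates, yet lower there at P7. It was at 373 and 146 CPM in myelinating Schwann cells and at 299 and 198 CPM in other glia. Of the receptors, Lrp1, which takes up apolipoprotein E, was at 142 and 273 CPM and was highest in fibroblasts.

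Of the cytosolic carriers in the list, Pmp2, a fatty-acid-binding protein of myelin, was at 52.5 and 213 CPM, Scp2 at 318 and 545 CPM, Tspo at 47.0 and 74.7 CPM and Crabp2 at 59.8 and 94.2 CPM. Genes of cholesterol synthesis and its control had a median log2 ratio of 0.13, close to that of all genes. Nr1h2, a nuclear receptor for oxysterols, was at 29.2 and 72.3 CPM, Fdps at 87.0 and 147 CPM and Idi1 at 67.3 and 88.8 CPM, whereas Insig1, which restrains sterol synthesis, was at 64.8 and 28.8 CPM.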

How the data were processed

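Single-cell RNA-seq of the rat cochlear duct was examined at P1 and P7, 1 library per age. Per the labels and the study's methods, the authors used bcl2fastq, Cell Ranger (3.1.0 in the matrix header) and Seurat 3.1.1, and the deposited values are UMI counts per gene and barcode, aligned to rn6 and not normalized. A step against doublets or free RNA is not given in the sources used here.

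A barcode was kept if it had 500 to 5000 genes, no fewer than 500 UMIs and a mitochondrial share below 25%. A marker counted in a cell when its share of UMIs exceeded 2 times (mesenchyme, 1.5 times) the mean of both libraries, and a gate asked for 3 to 6 markers. Gate minimums were set after the spread of marker counts was seen and without looking at the members. Cells past several lineage gates were left out of gates. Doublets were kept, and Scrublet (scanpy 1.11.5) called 564 and 768 cells. UMIs were summed per gate and library, with exact 95% intervals (scipy 1.17.1). No test between ages was possible with 1 library each. The ratio step was tested on simulated data drawn with counting error only, which cannot gauge variation between cells, animals or libraries.

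The members, gene lists and markers were chosen with earlier results of these data known. Named genes were all members, up to 4 lipid genes per role with the largest ratio at 50 CPM or more, and the 3 most similar genes of each member. Alternatives covered cell limits, doublets, marker minimums, scaling, cell weighting, the mix of gates and thinning to 1000 UMIs. The P1 library held 114285848 UMIs over 14068 barcodes and the P7 library 101264868 over 14501.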

Additional observations from a re-analysis of the deposited data

Results flagged for a closer look

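Apoe was lower at P7 in epithelium, with a log2 ratio of −0.57, and higher in 8 of 10 gates by their intervals. Clu was lower in Gpc3-Dcn fibroblasts, with a log2 ratio of −0.29, and higher in the other 9 gates by their intervals. Of these, the mural value rested on few cells and the endothelial value changed sign under some alternatives. Dbi was lower in myelinating Schwann cells, with −0.25, and in other glia, with −0.0221, and higher in 7 of 10 gates. The difference between gates was not tested in any of these cases, since each age has 1 library. The epithelial and fibroblast values kept their direction under each of the 8 alternatives, and so did that of myelinating Schwann cells, whereas that of other glia reversed under 3 of them, to 0.0254, 0.0337 and 0.0095.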

How the results depend on the processing

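No paired analysis was possible because each age has 1 library, and intervals cover counting error only, not variation between animals, cells or libraries. Each of the 44 whole-library and lipid-list values computed under an alternative was above 0, as in the main setting. The lipid-list values among them are counts of genes, which have no direction and cannot fall below 0. The log2 ratios of P7 to P1 over all cells, in the order Apoe, Apod, Clu, Pltp and Dbi, were 1.13, 1.56, 1.10, 1.48 and 0.67. With all deposited barcodes those of Apoe, Apod, Pltp and Dbi were 1.08, 1.66, 1.54 and 0.62. With a mitochondrial share under 10% the 5 ratios were 1.04, 1.60, 1.24, 1.38 and 0.65. Without Scrublet doublets those of Apoe, Apod, Clu and Dbi were 1.16, 1.54, 1.03 and 0.70, and with the mean of cell shares 1.15, 1.40, 0.95 and 0.65. Scaled without mitochondrial, ribosomal protein and haemoglobin UMIs the 5 ratios were 1.05, 1.48, 1.02, 1.40 and 0.59, and with P7 levels at the P1 mix 1.08, 1.39, 1.38, 1.36 and 0.29. Differences in the share of cells with a UMI, in percentage points, were 22.3, 14.9, 2.74, 14.6 and 14.01 when thinned to 2000 UMIs and 12.3, 17.1, 1.11, 17.8 and 5.93 without thinning. Thinned to 1000 UMIs they were 24.6 for Apoe and 10.7 for Pltp. With a minimum of 50 CPM, 3 of 21 tested genes of the lipid list were higher at P7 in place of 6 of 46. Of 400 values within gates under 8 alternatives, 390 kept their sign. Apoe in macrophages became −0.000754 with 1 fewer marker, −0.31 with a mitochondrial share under 10% and −0.03 by the mean of cell shares, and Dbi in mural cells −0.01 in 2 settings. Clu in endothelial cells became −0.0944 with 1 fewer marker and −0.50 without lineage cells past a mesenchyme gate. Dbi in other glia became 0.0254 with 1 more marker, 0.0337 without doublets and 0.0095 without those lineage cells, and for these the cause was not tested. The settings without lineage cells past a mesenchyme gate and without the 5 richest cells were chosen after seeing the data. The cell type with the highest level was kept in 62 of 70 checks.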

Other observations

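Within myelinating Schwann cells the lipid list stood differently from the whole library. Of 16 tested genes of cholesterol synthesis and its regulators, 7 were higher at P7 by a log2 ratio of at least 1 and 0 lower, beside 6.51% higher and 5.84% lower among all genes tested there, with a median of 0.77 beside 0.10 for all genes. In other glia 1 of 15 was higher and 0 lower, with a median of 0.44 beside 0.12. Gpc3-Dcn fibroblasts had the lowest median of the gates described, −0.49 beside 0.09, with 1 of 14 higher and 2 lower. Of the gated myelinating Schwann cells, 63.5% at P1 and 39.65% at P7 sat at the minimum of 3 myelin markers. Their myelin marker list summed to 2897 CPM and 5792 CPM, and the part of this in the ratios was not tested. Fdps, which makes farnesyl diphosphate, was at 131 CPM at P1 and 429 CPM at P7 in these Schwann cells, and Idi1, an isomerase of the same pathway, at 100.4 CPM and 286 CPM. Hmgcs1, which makes HMG-CoA, was at 105 CPM and 239 CPM and was singled out after its values were seen. Pmp2 was at 616 CPM and 998 CPM there. The difference between the cell types was not tested.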
